A study of Mus musculus with 20 samples.

Results

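Microglia survey the brain through receptors for nucleotides, adenosine and the chemokine fractalkine. The level of 10 genes of this kind was followed after lateral fluid percussion injury (FPI), a pressure pulse of fluid against the exposed dura that gives a focal and diffuse brain injury. The genes were P2ry12, P2ry13, P2ry6, P2rx4, P2rx7, Entpd1, Gpr34, Cx3cr1, Tmem119 and Adora3. They were taken by symbol from a table of 39017 gene identifiers, and all 10 were found. Microglia and astrocytes were sorted from the forebrain on the injured side of adult male C57BL/6 mice (C57BL/6J in the study's methods), 3 to 4 months old, at day 7 after FPI or sham injury. Sham mice received the same craniectomy and connection to the device without the pulse. Microglia were gated as CD11b+ cells with intermediate CD45, and astrocytes as ACSA-2+ cells. Each of the 4 groups (sham microglia, FPI microglia, sham astrocytes, FPI astrocytes) held 5 libraries of total RNA, with 5623349 to 13110857 counts per library. Libraries were not pooled over animals. FPI astrocyte replicates 2 and 5 carry the same animal number in their names, so this group may hold 4 animals, and in the name of replicate 5 the number is followed by M, as in microglia replicates 1 to 3, although its title gives astrocytes.

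ATP and ADP leak from damaged cells and act on 2 receptor classes. P2X receptors such as P2rx4 and P2rx7 are ATP-gated cation channels, and P2Y receptors such as P2ry12, P2ry13 and P2ry6 couple to G proteins. P2ry12 senses ADP and steers microglial processes toward damage, P2ry13 is a closely related ADP receptor, and P2ry6 senses UDP and is linked to phagocytosis. Entpd1 (CD39) is the surface enzyme that breaks ATP and ADP down to AMP, and Adora3 is an adenosine receptor. Gpr34 is a lysophosphatidylserine receptor, Cx3cr1 is the receptor for neuronal fractalkine, and Tmem119 is a membrane protein used as a marker of resident microglia. P2ry12, P2ry13, Gpr34, Cx3cr1 and Tmem119 are known as genes of homeostatic microglia, whereas P2rx4 and P2rx7 are better known from reactive microglia.

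The members lie at 2 pairs of neighbouring loci and 6 single ones (GRCm38). P2ry13 (chr3:59207892-59210882) and P2ry12 (chr3:59216272-59262871) stand 5.4 kb apart on the minus strand, within the body of Med12l on the other strand. P2rx7 (chr5:122643911-122691432) and P2rx4 (chr5:122707544-122729738) stand 16.1 kb apart on the plus strand. The 250 bases before the start of the genes that turned out to move most, and of their neighbour, are shown from RefSeq (GRCm38.p6), with matches to GAGGAA (the PU box, a core bound by the myeloid factor PU.1) or GGAAGT (a core of the ETS family, to which PU.1 belongs) in capitals.
P2ry13 (chr3:59210883-59211132, minus strand): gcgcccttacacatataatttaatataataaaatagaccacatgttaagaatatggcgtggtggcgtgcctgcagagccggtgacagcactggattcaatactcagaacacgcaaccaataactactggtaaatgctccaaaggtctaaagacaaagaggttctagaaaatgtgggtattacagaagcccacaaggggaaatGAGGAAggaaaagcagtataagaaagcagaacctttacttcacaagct
P2ry12 (chr3:59262986-59263235, minus strand): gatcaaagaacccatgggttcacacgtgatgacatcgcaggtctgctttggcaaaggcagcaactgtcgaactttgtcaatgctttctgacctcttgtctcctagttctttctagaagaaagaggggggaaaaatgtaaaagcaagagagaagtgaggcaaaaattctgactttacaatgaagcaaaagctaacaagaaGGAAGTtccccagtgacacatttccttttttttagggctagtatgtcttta
P2rx4 (chr5:122707294-122707543, plus strand): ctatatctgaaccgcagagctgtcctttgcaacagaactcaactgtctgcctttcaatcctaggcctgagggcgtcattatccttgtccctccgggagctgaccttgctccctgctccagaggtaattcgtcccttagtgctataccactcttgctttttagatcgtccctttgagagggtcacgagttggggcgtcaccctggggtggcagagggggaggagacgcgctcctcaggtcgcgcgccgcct
RefSeq promoters were matched for 7 of the 10 members. The P2ry13 sequence holds a PU box that begins 48 bases before the start, and the P2ry12 sequence holds the ETS core 51 bases before it. The P2rx4 sequence holds neither on either strand. Among the other matched members, Adora3 holds both, Entpd1 holds GAGGAA, and Cx3cr1 and P2rx7 hold neither. Searched on both strands, GAGGAA is present in 23.3% and GGAAGT in 19.7% of 32851 RefSeq promoters of the same length, so these matches are common and serve as a description of the loci.

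Some facts of the libraries touch the members. Microglia libraries held 21107 to 26038 summed CPM (gene counts scaled to a common library size) of 8 microglia markers in sham and 16910 to 26745 in FPI, against 30.1 to 60.6 in sham astrocytes. The names given to the microglia libraries have 2 forms, a number followed by M in replicates 1 to 3 and a number followed by J-A in replicates 4 and 5 of both sham and FPI. What the forms stand for is not given in the sources used here, and they are called the first and the second name series below. FPI astrocyte replicate 5, whose name also has M, held 157 summed CPM of the microglia markers. It held 14899 summed CPM of 8 astrocyte markers, so its markers go with its title. Markers of border macrophages (8 genes, among them Mrc1, Pf4 and Cd163) moved with the name series. Their summed level was 308 to 472 CPM in sham and 147 to 275 CPM in FPI in the first series, and 18.4 to 24.9 CPM in sham and 25.1 to 59.6 CPM in FPI in the second. Genes induced by cell dissociation (6 genes, among them Fos and Egr1) summed to 2406 to 3111 CPM in sham and 2278 to 2640 CPM in FPI in the first series. In the second they summed to 1775 and 1667 CPM in sham and to 1430 and 990 CPM in FPI. Because the members differed by series too, the injury effects of the members are given for all libraries and within each series.

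In sham microglia the levels per kilobase of exon spanned from the channel P2rx4 to the fractalkine receptor. Cx3cr1 stood at 862 ± 115 CPM per kb (SD, n = 5) and P2ry12 at 705 ± 113, and the ranges of these top genes overlapped. Tmem119 (473 ± 19.97), Gpr34 (359 ± 14.7), P2ry13 (272 ± 42.6) and Entpd1 (132 ± 12.2) followed on this scale without overlap between neighbours, although the highest P2ry13 library (343.0) nearly met the lowest Gpr34 library (343.2). P2ry6 (43.7 ± 3.27) and P2rx7 (42.3 ± 1.01) could not be ordered beyond their spread. Adora3 (16.2 ± 1.96) and P2rx4 (5.67 ± 0.359) were lowest.

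After FPI the ADP receptor P2ry13 fell and the ATP-gated channel P2rx4 rose, and no other member passed the test over all 5 against 5 microglia libraries. Calls required a Benjamini-Hochberg adjusted p below 0.1 in edgeR and a log2 fold change beyond 0.6 in either direction. This made 1 of 10 members lower and 1 higher, against 0.214% of 12143 tested genes called lower and 2.13% called higher. At an unadjusted p below 0.05, 5 members (P2ry12, P2ry13, Entpd1, Cx3cr1 and Tmem119) were on the lower side, against 3.87% of tested genes, and 1 (P2rx4) was on the higher side, against 7.47%. The log2 fold change was negative for 8 of 10, with a median of -0.32 against -0.009 for all genes tested. In sorted bulk RNA, fewer cells carrying a transcript and less transcript per cell cannot be told apart.

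P2ry13 was measured at 867, 686, 680, 613 and 595 CPM in sham replicates 1 to 5 and at 354, 381, 322, 530 and 572 CPM in FPI replicates 1 to 5. Every FPI library lay below every sham library, which held for 1.27% of tested genes, but FPI replicates 4 and 5 came close to the sham range. The log2 fold change was -0.65 ± 0.17 (SE, adjusted p = 0.0493), a level 36.5% lower (95% interval -50.2% to -19.1%). On size factors from the DESeq2 method the groups overlapped.

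P2ry12, the process-steering ADP receptor next to it on the chromosome, was measured at 2140, 1899, 1943, 1521 and 1475 CPM in sham and at 1060, 1091, 820, 1438 and 1850 CPM in FPI. FPI replicates 1 to 3 lay far under all sham libraries, replicate 4 lay just under them and replicate 5 lay within their range. The log2 fold change was -0.50 ± 0.19 (adjusted p = 0.248), which did not pass. The gene Med12l overlaps both genes on the other strand, but shares only 9 bases of exon with P2ry12 and 0 with P2ry13. It drew 5044 counts over the 10 microglia libraries, against 130176 for P2ry12 and 47660 for P2ry13. Whether the counting used strand is not given in the sources used here.

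P2rx4 was measured at 40.8, 35.5, 40.1, 41.0 and 41.8 CPM in sham and at 74.4, 78.6, 55.1, 67.1 and 43.8 CPM in FPI. All FPI libraries lay above all sham libraries (2.17% of tested genes did so), with replicate 5 only just above. The log2 fold change was 0.69 ± 0.16 (adjusted p = 0.0272), an increase of 61.6% (95% interval 27.9% to 104%). By plain totals in place of TMM-scaled totals the groups overlapped. P2rx7, its neighbour and the channel that triggers the inflammasome, was measured at 247, 257, 253, 245 and 259 CPM in sham and at 220, 212, 237, 216 and 239 CPM in FPI. The groups were apart on this scale and overlapped on each of the 3 other scales tried, and the log2 fold change of -0.15 ± 0.10 did not pass (adjusted p = 0.688).

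**Figure D1:**
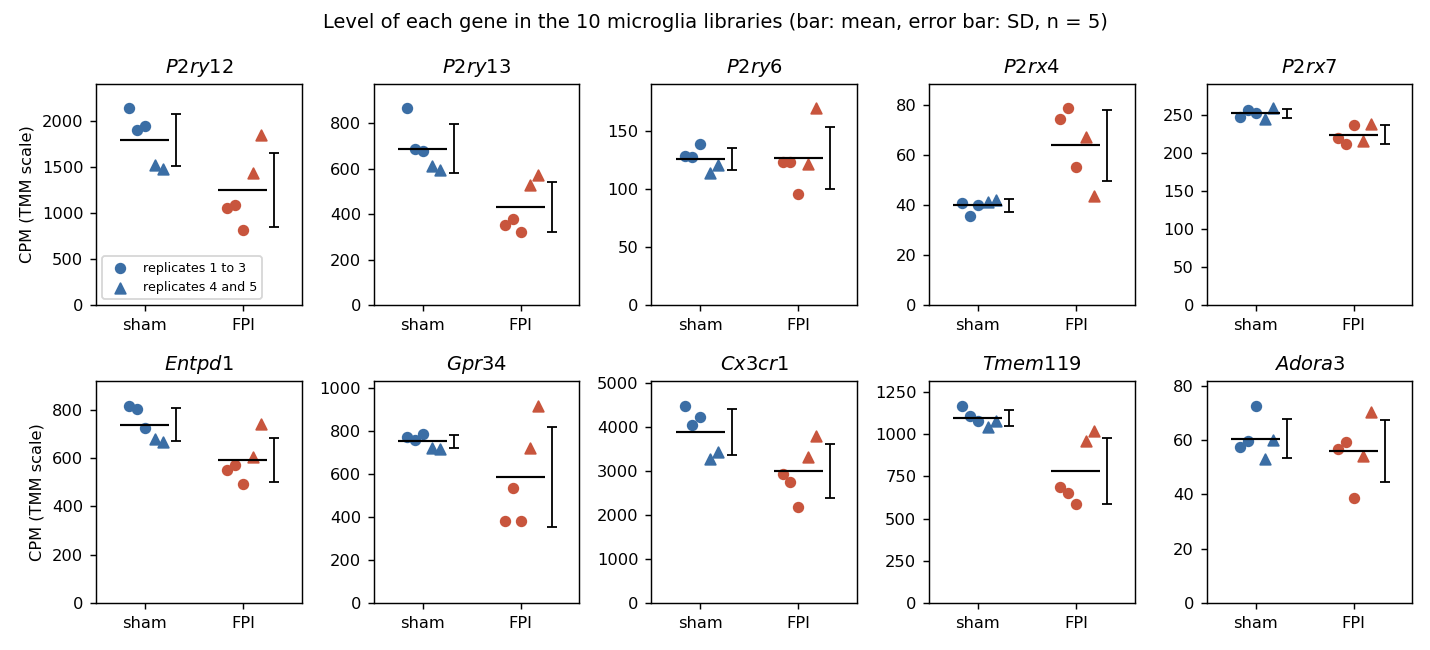
Level of each of the 10 genes in every microglia library, in CPM on the TMM scale from 0. Circles are replicates 1 to 3 and triangles replicates 4 and 5 of sham (blue) and FPI (red), bars are means and error bars SD over 5 libraries. In FPI the triangles of P2ry12, Gpr34, Cx3cr1 and Tmem119 sit above the FPI circles, and P2rx4 is higher in all 5 FPI libraries.

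The chemokine and lipid receptors and Tmem119 had negative fold changes that did not pass over all libraries. Cx3cr1 was measured at 4471, 4033, 4221, 3272 and 3423 CPM in sham and at 2922, 2746, 2167, 3314 and 3794 CPM in FPI, with replicates 1 to 3 under every sham library and 4 and 5 within the sham range (log2 fold change -0.36 ± 0.16, adjusted p = 0.362). Gpr34 was measured at 773, 757, 786, 721 and 717 CPM in sham and at 378, 535, 379, 720 and 915 CPM in FPI. Its sham libraries were tightly grouped, and the FPI libraries spread from well below to above them (log2 fold change -0.34 ± 0.20, adjusted p = 0.599). Tmem119 was measured at 1167, 1108, 1080, 1043 and 1079 CPM in sham and at 684, 652, 585, 958 and 1018 CPM in FPI. Its groups did not overlap on this scale, did so on 2 of the 3 others, and its log2 fold change of -0.47 ± 0.15 did not pass (adjusted p = 0.15).

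The remaining members differed less. The nucleotide-degrading enzyme Entpd1 was measured at 815, 801, 723, 680 and 667 CPM in sham and at 548, 569, 492, 606 and 739 CPM in FPI, where replicate 5 lay within the sham range (log2 fold change -0.30 ± 0.13, adjusted p = 0.364). The UDP receptor P2ry6 ranged from 114 to 139 CPM in sham and from 95.9 to 170 CPM in FPI, and its log2 fold change of 0.03 had a 95% interval from -0.27 to 0.33. The adenosine receptor Adora3 ranged from 52.9 to 72.6 CPM in sham and from 38.7 to 70.5 CPM in FPI, with a log2 fold change of -0.09 and an interval from -0.44 to 0.25. Adora3 shares 779 bases of exon with Tmigd3 on the same strand, which drew 19 counts against 4901 for Adora3 over the 10 microglia libraries, so its value is less certain. Across the members, FPI replicate 3 was the lowest FPI library for 7 of 10 and FPI replicate 5 the highest for 9 of 10.

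Within the first name series (replicates 1 to 3 of each group), P2ry12, P2ry13, Gpr34, Cx3cr1 and Tmem119 were called lower and P2rx4 higher after FPI. That is 5 of 10 members lower, against 0.793% of 12351 tested genes, and 1 higher, against 2.15%. The log2 fold change was -1.10 ± 0.15 for P2ry13 (adjusted p = 0.000564) and -1.02 ± 0.15 for P2ry12 (adjusted p = 0.00112), levels 53.3% and 50.9% lower. Gpr34 followed at -0.86 ± 0.15 (adjusted p = 0.0056), Tmem119 at -0.82 ± 0.14 (adjusted p = 0.00364) and Cx3cr1 at -0.71 ± 0.15 (adjusted p = 0.0186). Entpd1 had -0.55 ± 0.14 (adjusted p = 0.0492), short of the fold threshold, and P2rx4 had 0.83 ± 0.20 (adjusted p = 0.0408). P2ry6, P2rx7 and Adora3 had -0.22, -0.20 and -0.31 and did not pass. The median of the members was -0.63.

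Within the second name series (replicates 4 and 5), no member was called by edgeR and none had an unadjusted p below 0.05, against 0.798% of 12151 genes called higher and 0.0165% called lower. P2ry12 had a log2 fold change of 0.18 ± 0.18 (95% interval -0.20 to 0.57), Gpr34 of 0.23 ± 0.18 and Cx3cr1 of 0.13 ± 0.18. The 95% intervals of the 2 series did not overlap for P2ry12, P2ry13, Gpr34, Cx3cr1 and Tmem119. They overlapped for Entpd1, P2ry6, Adora3, P2rx4 and P2rx7. The direct test of the difference between the series is given below. P2ry13 had -0.08 ± 0.16, Tmem119 -0.06 ± 0.17, P2rx7 -0.10 ± 0.17, Entpd1 0.05 ± 0.17, Adora3 0.20 ± 0.22 and P2ry6 0.36 ± 0.20 (adjusted p = 0.501). P2rx4 had 0.46 ± 0.25 (adjusted p = 0.495), on the same side as in the first series. The median was 0.16. With 2 libraries a side, this fit has less power than the other.

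**Figure D2:**
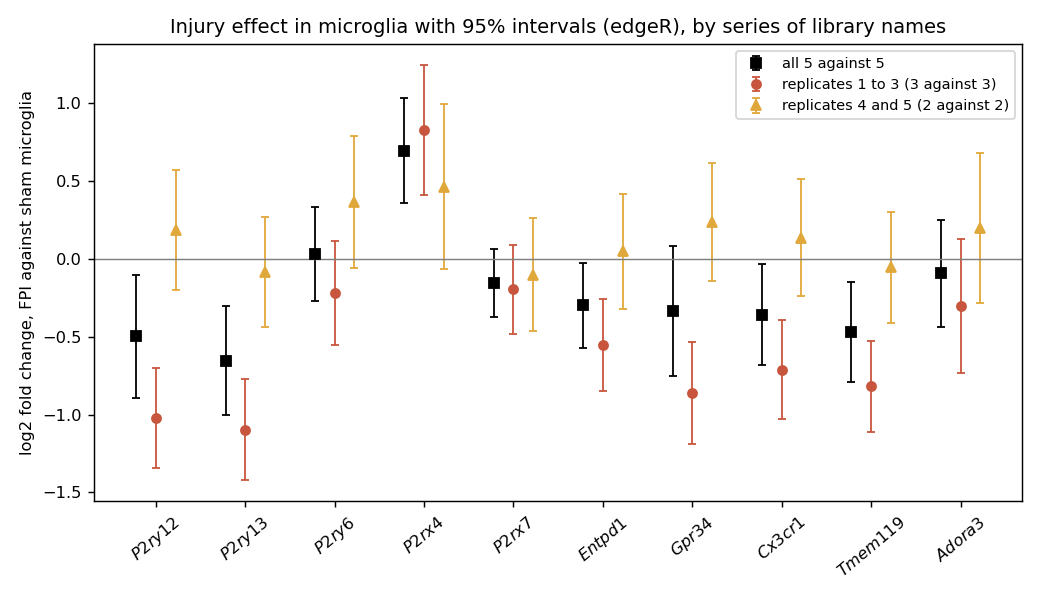
Log2 fold change of FPI against sham microglia for each gene, with 95% intervals from edgeR, over all 5 against 5 libraries (black squares), replicates 1 to 3 (red circles) and replicates 4 and 5 (yellow triangles). For P2ry12 the estimates are -1.02 in replicates 1 to 3 and 0.18 in replicates 4 and 5, whereas all 3 estimates for P2rx4 are above 0.

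The difference between the series was tested directly, as an interaction chosen after the data had been seen. In edgeR no member passed (adjusted p below 0.1), where 0.0144% of 13851 genes did. P2ry12 had -1.19 ± 0.23 (adjusted p = 0.105), Gpr34 -1.08 ± 0.24 (adjusted p = 0.164), P2ry13 -0.996 ± 0.222 (adjusted p = 0.164), Cx3cr1 -0.83 ± 0.22 (adjusted p = 0.273) and Tmem119 -0.75 ± 0.20 (adjusted p = 0.288). At an unadjusted p below 0.05, 7 of 10 members were on the lower side, against 4.3% of genes. DESeq2 called 6 members, P2ry12, P2ry13, Gpr34, Tmem119, Cx3cr1 and Entpd1 (adjusted p from 0.000371 to 0.0825, with 0.693% of 20485 genes called), and edgeR with every gene that had a count called 4 (0.742%), so the call depends on how the genes were filtered and fitted. The effect of P2rx4 differed by 0.38 ± 0.32 between the series (adjusted p = 0.720). The sham libraries also differed by series, with P2ry12 higher in replicates 1 to 3 by 0.42 on the log2 scale and Cx3cr1 by 0.35, neither past the test (adjusted p = 0.823 and 0.906, where 0.31% of genes passed). The part of the border macrophage and dissociation genes in these differences was not tested.

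Other markers moved with FPI as well. Astrocyte markers (8 genes) summed to 239 to 356 CPM in sham microglia and to 287 to 594 CPM in FPI microglia, highest in FPI replicates 1 and 2. Monocyte markers (8 genes) summed to 5.11 to 11.9 CPM in sham and 6.00 to 31.9 CPM in FPI, with Ly6c2 and F10 at 0 counts in all 10 microglia libraries. Oligodendrocyte markers (5 genes) summed to 96.4 to 147 CPM in sham and 145 to 231 CPM in FPI. Precursor (OPC) markers (4 genes) summed to 4.08 to 6.43 CPM in sham and 2.18 to 17.5 CPM in FPI. Of 2 OPC markers tested, Cspg4 was called higher, and the other had a log2 fold change of -1.665 (unadjusted edgeR p below 0.05). Also called higher were 1 of 8 astrocyte, 1 of 2 monocyte and 1 of 4 oligodendrocyte markers tested. Among all genes tested, 2.13% were called higher. The part of these markers in the results was not tested.

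Ratios within a library set the receptors against each other. P2ry6 stood at 6.01%, 6.73%, 7.16%, 7.48% and 8.21% of the P2ry12 level in sham replicates 1 to 5 and at 11.7%, 11.3%, 11.7%, 8.49% and 9.18% in FPI replicates 1 to 5. All FPI libraries were above all sham libraries, by 0.551 on the log2 scale (exact two-sided permutation test, p = 0.00794, the smallest that 5 against 5 can give, and 0.0238 adjusted over 3 ratios). Taken alone, P2ry6 had a log2 fold change of 0.03 and P2ry12 one of -0.50, so most of this difference lies in the P2ry12 level. How often the ratio of any other gene to P2ry12 would part the groups was not tested. P2rx4 stood at 1.87% to 2.83% of P2ry12 in sham and 2.37% to 7.21% in FPI, a log2 difference of 1.2 (exact permutation p = 0.0238, adjusted 0.0357), with FPI replicate 5 within the sham range. Its adjusted exact p was 0.0714 without sham replicate 1, 2 or 3, or without FPI replicate 1, 2, 3 or 4. P2rx7 stood at 11.6% to 17.6% and 12.9% to 28.9%, a log2 difference of 0.393 that did not pass (exact permutation p = 0.127), except without FPI replicate 5 (adjusted exact p = 0.0476). Ratios were higher in FPI in replicates 1 to 3 for all 3 genes. In replicates 4 and 5 P2ry6 remained above sham, whereas P2rx7 (15.0% and 12.9%) lay below the sham libraries of the same series (16.1% and 17.6%).

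**Figure D3:**
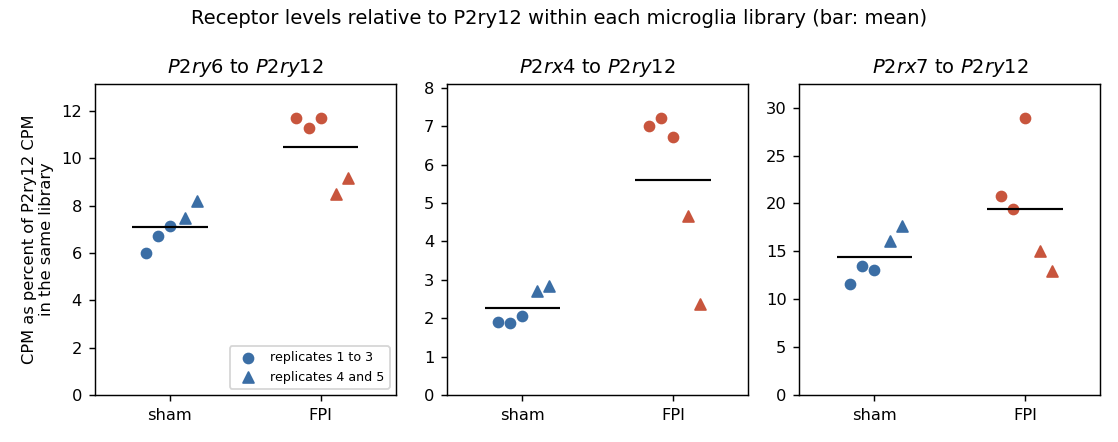
Level of P2ry6, P2rx4 and P2rx7 as a percent of P2ry12 in the same microglia library, from 0, with symbols and colours as in the plot of levels and bars at the mean. The ratio of P2ry6 to P2ry12 runs from 6.01% to 8.21% in sham and from 8.49% to 11.7% in FPI, without overlap.

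Other homeostatic microglia genes were followed as well. Of 39 listed, 38 were tested, and Slc2a5 (a fructose transporter, log2 fold change -0.63 ± 0.17, adjusted p = 0.0651) and Ecscr (-0.60 ± 0.15, adjusted p = 0.0422) were called lower, beside 0.214% of all genes tested. In total 11 were lower at an unadjusted p below 0.05, the others being Selplg, Vsir, Adgrg1, Golm1, Maf, Sall1, Sall3, Siglech and Upk1b, and 1, Lag3, was higher, where 3.87% of all genes were lower and 7.47% higher. The median was -0.16, beside -0.009 for all genes. In the first series 7 were called lower (median -0.38, beside 0.793% of all genes called lower) and in the second none (median 0.06), where 0 had an unadjusted p below 0.05 on the lower side. Genes of disease-associated microglia, a reactive state described in neurodegeneration, were the other list of microglial state. Of 18 listed, 13 were called higher in all libraries (median 1.86), 13 in the first series (median 2.27) and 6 in the second (median 1.16), and none was called lower in any of the 3. The shares of all tested genes called higher in these fits were 2.13%, 2.15% and 0.798%.

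Of the rest of the purinergic and fractalkine pathway, 1 gene, Enpp1, was called over all microglia libraries. Of 15 other nucleotide and adenosine receptors only Adora1 and P2rx1 had enough counts to test, and none was called. Adora1, an adenosine receptor abundant in astrocytes (75.3 ± 18.4 CPM in sham astrocytes, SD, n = 5), had a log2 fold change of 1.35 ± 0.52 in microglia (adjusted p = 0.259) at 0.874 to 3.63 CPM in sham and 2.77 to 11.3 CPM in FPI. Of 19 genes of nucleotide release, breakdown and uptake, 12 were tested and 1 was called higher, beside 2.13% of all genes tested. Enpp1, an ectoenzyme that cleaves ATP to AMP and pyrophosphate, was measured at 14.6, 10.97, 12.1, 17.0 and 10.2 CPM in sham and at 40.6, 26.5, 23.0, 21.2 and 22.4 CPM in FPI. Every FPI library was above every sham library, as for 2.17% of tested genes. The log2 fold change of Enpp1 was 1.06 ± 0.23 (adjusted p = 0.0164), and it was called without any 1 of the 10 libraries. Pnp, which splits inosine and guanosine, had -0.56 ± 0.14 (adjusted p = 0.0532), short of the fold threshold. Of 16 genes of ligand processing and signalling, 14 were tested and none was called. The sheddase gene Adam17 had 0.25 ± 0.11 (unadjusted p = 0.0365, adjusted 0.380) and the kinase gene Pik3cg had -0.29 ± 0.11 (unadjusted p = 0.0187, adjusted 0.274). The potassium channel Kcnk13, which sets the resting ramification of microglia, had 0.08 ± 0.17. In the first series Enpp1 was called higher (1.25 ± 0.30, adjusted p = 0.0385), as was P2ry2, an ATP and UTP receptor (adjusted p = 0.0385, with 24 counts in all sham microglia and 118 of its 161 FPI counts in replicate 1). Pnp (-0.78 ± 0.18, adjusted p = 0.0358) and the nucleoside transporter Slc29a1 (-0.87 ± 0.19, adjusted p = 0.0221) were called lower there. Of all genes tested in that series, 2.15% were called higher and 0.793% lower. In the second series no gene of the 3 pathway lists was called by edgeR or had an unadjusted p below 0.05, and Enpp1 had 0.72 ± 0.36.

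Over the 10 microglia libraries, the genes whose profile lay nearest to P2ry12 were Cd164, P2ry13 and Cstf1, with root mean square differences of 0.106, 0.125 and 0.141 in centred log2 CPM. P2ry12 itself had an SD of 0.427 on that scale. The nearest to Cx3cr1 were Dusp7 (0.110), Entpd1 (0.110) and Gpr155 (0.113), and the nearest to Tmem119 were Cmtm6 (0.0952), Sgce (0.119) and Hfe (0.121). A member was thus among the nearest 3 of all tested genes for both P2ry12 and Cx3cr1, but not for Tmem119. How often a listed gene would lie this near was not tested.

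Astrocytes served as the reference cell type, and all 10 members were called higher in sham microglia than in sham astrocytes. Of 15077 tested genes, 25.3% were. The members were listed as genes of microglia, so these calls describe levels and are no independent result. P2ry13, P2ry6, Gpr34, Tmem119 and Adora3 did not pass the filter in astrocytes alone. They entered this fit through their microglia counts. The log2 difference was 12.25 ± 0.55 for Cx3cr1, 10.36 ± 0.54 for Tmem119, 9.55 ± 0.38 for P2ry12 and 5.76 ± 0.35 for Entpd1. P2rx7 (3.01 ± 0.25) and P2rx4 (1.31 ± 0.17) differed least. P2rx4 was measured at 13.03 to 19.8 CPM in sham astrocytes, 40.4% of the mean of sham microglia, and P2rx7 at 16.3 to 47.8 CPM, or 12.4%. P2ry13, P2ry6, Gpr34 and Adora3 had 5, 2, 6 and 2 counts in all 5 sham astrocyte libraries together and no fold is given.

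In astrocytes fitted alone, no member was called after FPI by edgeR, against 0.00728% of 13741 genes called higher and none lower (1.57% and 0.75% at an unadjusted p below 0.05). P2rx4 had -0.30 ± 0.19, P2rx7 -0.06 ± 0.31, Entpd1 -0.30 ± 0.40 and P2ry12 0.92 ± 0.43, each with an adjusted p of 0.999. Cx3cr1 had 3.34 ± 0.62 (unadjusted p = 0.000156, adjusted 0.215), and it was called by DESeq2 (0.172% of genes called higher) and by edgeR with all 20 libraries in 1 fit (3.28 ± 0.44, adjusted p = 0.00116, 0.345% of genes called higher). It was measured at 0.530, 1.13, 1.56, 0.307 and 0.252 CPM in sham astrocytes and at 9.98, 11.7, 2.86, 3.16 and 11 CPM in FPI astrocytes. Each FPI library was above each sham library, as for 0.451% of tested genes (0.262% had each FPI library below). The FPI mean was 0.259% of that in FPI microglia, and other microglia markers in the same libraries stood at a like share, with P2ry12 at 0.357%, Itgam at 0.361%, Csf1r at 0.266% and Tmem119 at 0.217%. The 8 microglia markers together summed to 30.1 to 60.6 CPM in sham and 42.3 to 157 CPM in FPI astrocytes, and their part in the Cx3cr1 difference was not tested.

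Below the filter in astrocytes, Gpr34 had 6 counts in sham and 63 in FPI over 5 libraries each, 34 of the latter in FPI replicate 5 (exact permutation p = 0.0159, adjusted over 5 genes 0.0795). Tmem119 (38 and 63 counts), P2ry13 (5 and 22), P2ry6 (2 and 38) and Adora3 (2 and 14) did not reach an exact p of 0.05. Of the pathway lists, 7 other receptors, 12 genes of nucleotide handling and 12 of ligand processing were tested in astrocytes, and none was called by edgeR. At an unadjusted p below 0.05 stood the adenosine receptor Adora2b (log2 fold change -0.78 ± 0.36) and the cytokine gene Il18 (-0.51 ± 0.20). In edgeR both had an adjusted p of 0.999. Of 27 other homeostatic microglia genes tested in astrocytes none was called by edgeR. Among those on the higher side at an unadjusted p below 0.05 were Fcrls (log2 fold change 3.44 ± 0.94), the growth factor receptor Csf1r (2.96 ± 0.80) and Olfml3 (1.16 ± 0.37).

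**Figure D4:**
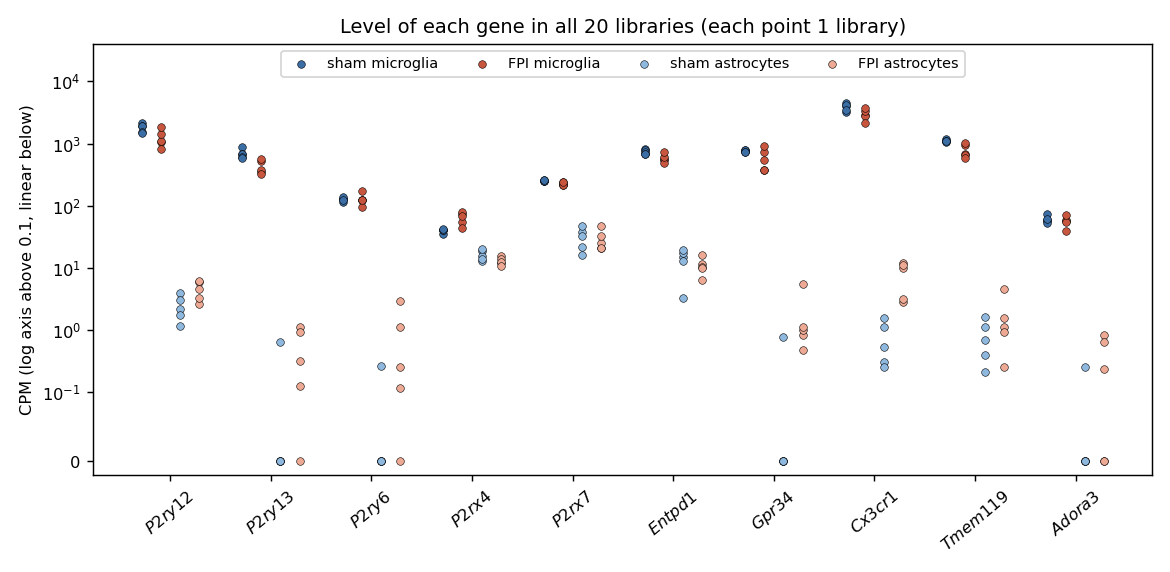
CPM of each gene in all 20 libraries, 1 point per library, on an axis that is logarithmic above 0.1 and linear below, so that libraries with no count show at 0. Microglia (dark) lie above astrocytes (light) for every gene, by the least for P2rx4 and P2rx7, and FPI astrocytes lie above sham astrocytes for Cx3cr1.

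Whether the injury effect differed between microglia and astrocytes was tested over all 20 libraries. Cx3cr1 passed with a difference of -3.66 ± 0.56 on the log2 scale (adjusted p = 0.00518), where 0.199% of 15077 genes passed. It was not alone among microglial transcripts. Of the 8 microglia markers, Cx3cr1 among them, 3 passed on the lower side, with a median of -2.845 beside 0.017 for all genes. Of 38 other homeostatic microglia genes, 5 passed on the lower side. In microglia its levels ran from 2167 to 4471 CPM, and in astrocytes from 0.252 to 11.7 CPM. P2rx4 had a difference of 1.01 ± 0.24 and did not pass (adjusted p = 0.156). DESeq2 called Cx3cr1, Gpr34, P2ry6, P2ry13 and P2ry12 lower and P2rx4 higher in this comparison (adjusted p from 2.71e-07 to 0.0814, with 0.787% of genes called). Gpr34, P2ry6 and P2ry13 rest there on sham astrocyte sums of 6, 2 and 5 counts. P2ry12 had -1.42 ± 0.41 (adjusted p = 0.276), and P2rx7 and Entpd1 had -0.07 ± 0.34 and 0.01 ± 0.40.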

How the data were processed

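Total RNA of sorted microglia and astrocytes was made into libraries with the SMARTer Stranded Total RNA Pico v2 kit. The authors aligned reads to GRCm38.p6 (mm10) with HISAT2 2.1.0 and deposited whole-number counts per gene, with featureCounts named in the submitters' processing notes. Its treatment of strand and of reads with several matches is not given in the sources used here, so counts could be split among overlapping genes. The study's own tests used another quantification, not used here. The combined table equalled the 20 single-library files. Groups came from the labels, and animals are the replicates. FPI astrocyte replicates 2 and 5 share an animal number, and 3 animals gave both cell types.

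Counts were tested in edgeR 4.0.16 (R 4.3.3) by the quasi-likelihood test after filterByExpr and TMM scaling, with each cell type fitted alone, and all 20 libraries together for comparisons between cell types. P-values were Benjamini-Hochberg adjusted over all genes tested, and calls needed an adjusted p below 0.1 and a log2 change of over 0.6 either way (no fold minimum for interactions). SE came from the quasi-likelihood F. CPM are on the TMM scale of all 20 libraries. Ratios used log2(CPM + 1), and astrocyte genes under the filter log2(CPM + 0.5), with exact permutation tests. Fits were tested on simulated data. DESeq2 1.42.0, other size factors and filters, robust fitting, a replicate block, left-out libraries and name series were alternatives. Depth sets counting error only, and a level of 3 counts or fewer was treated as not measurable. Exon lengths came from GENCODE M21. Named genes were the members, genes of the pathway and homeostatic lists past the call or an unadjusted p of 0.05, and the 3 nearest profiles to P2ry12, Cx3cr1 and Tmem119. P2rx1, P2ry2, Slc29a1, Kcnk13, Cspg4 and the single microglia markers were added after their values were seen. The members and lists were chosen with earlier results of these data known. Some results for listed genes are not reported here.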

Additional observations from a re-analysis of the deposited data

Results flagged for a closer look

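In the test for a library apart from the other 4 of its group (Dixon's critical value 0.71), 4 of 38 member and group combinations stood out, where chance flags about 1 in 20. P2rx4 in sham microglia replicate 2 was 35.5 CPM and the next sham library 40.1 CPM. Without that library the adjusted p of P2rx4 after FPI moved to 0.111 in edgeR, with a log2 fold change of 0.64 against 0.69 with all libraries. In sham astrocyte replicate 5, P2ry13 was 0.631 CPM and Gpr34 was 0.757 CPM, with 0 in the other 4 libraries. These values rest on 5 and 6 counts. With the other libraries at 0 the flag was bound to follow, so the rate of 1 in 20 does not apply to them. In FPI astrocyte replicate 5, Gpr34 was 5.42 CPM against 1.12 CPM in the next library. The effect of FPI on Cx3cr1 differed between microglia and astrocytes by -3.66 on the log2 scale in the edgeR interaction test (adjusted p = 0.00518), and it was called in all 20 fits that left out 1 library. In the fit of all libraries, 3 of 8 microglia markers were called lower, Cx3cr1 among them.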

How the results depend on the processing

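With 10 members, 5 libraries a group and 2 name series of unknown meaning, the calls rest on few libraries. P2ry13 was called in 4 of 10 fits that left out 1 microglia library (log2 fold change -0.80 to -0.55), and lost without sham or FPI replicate 1, 2 or 3 (highest adjusted p = 0.173). P2rx4 was called in 8 of 10 (0.61 to 0.79), and lost without replicate 2 of sham or of FPI (highest adjusted p = 0.122). Leaving out 1 library gave 0 to 3 members called lower (3 without FPI replicate 5, then with P2ry12 at -0.71 and Tmem119 at -0.61), 0 to 1 higher, and 177 to 423 genes called against 285. P2ry6 ranged from -0.12 to 0.13 and Adora3 from -0.21 to 0.0213. With all 20 libraries in 1 fit, 121 genes and 0 members lower were called. A term for the name series kept P2ry13 (-0.69, adjusted p = 0.0224) and P2rx4 (0.69, adjusted p = 0.0254) called. Replicates 1 to 3 alone gave 5 members lower, with P2ry6 at -0.22. Replicates 4 and 5 alone gave 99 genes, 0 members higher and 0 lower, and turned P2ry12 to 0.18, Gpr34 to 0.23, Cx3cr1 to 0.13, Adora3 to 0.20, Entpd1 to 0.0474, Adgrg1 to 0.0162, Maf to 0.0175, Upk1b to 0.22 and Adora1 to -0.0556. The cause was not tested. Of the called pathway and homeostatic genes, Enpp1 kept its call in 10 of 10 left-out fits, Ecscr in 5 and Slc2a5 in 3.

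In astrocytes the 1 gene called became 39 in DESeq2 (1 member higher), 9 with every gene with a count, 53 with all 20 libraries in 1 fit (1 member higher), 11 with the replicate block, 0 with at least 10 counts in every library, 0 with robust fitting, 0 with FPI replicates 2 and 5 summed (P2rx7 at 0.0021), 0 at an adjusted p below 0.05, and 0 to 3 with 1 library left out (P2rx7 from -0.33 to 0.14). For the effect in microglia minus that in astrocytes, 30 genes became 190 in DESeq2 (5 members lower, 1 higher), 69 without the astrocyte libraries of animals with both cell types (3 members lower), and 21 to 48 with 1 library left out (1 to 3 members lower, 0 to 1 higher, Entpd1 from -0.17 to 0.26, P2rx7 from -0.29 to 0.16). The 2 genes of the series interaction became 142 in DESeq2 (6 members lower) and 152 with every gene with a count (4 lower), and 1 to 161 with 1 library left out (0 to 4 lower, P2rx7 from -0.19 to 0.0129). With 1 library left out the log2 ratio to P2ry12 ranged from 1.08 to 1.48 for P2rx4 and from 0.235 to 0.526 for P2rx7.

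Same-numbered libraries did not deviate together in every pair (correlations -0.09 to 0.08 in microglia and -0.00 to 0.53 in astrocytes). The replicate block gave 255 genes in microglia with the member counts as before, and Entpd1 at -0.0161 in the interaction with astrocytes. The sign-flip test that pairs replicates left the ratios at 0.551 for P2ry6 and 1.2 for P2rx4 with an adjusted exact p of 0.188, where 5 pairs cannot go below an unadjusted 0.0625.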
